A study of Mus musculus with 1920 samples.

Results

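Fyn, Src, Yes1 and Lyn are Src-family tyrosine kinases, and Ptk2, Pxn, Bcar1 and Vcl encode focal adhesion kinase, paxillin, p130Cas and vinculin, which work beside them where a cell holds its matrix. These 8 genes, of 55471 in the count table, were taken by name and followed through single mouse intestinal stem cells (ISCs) of young and old mice. Fyn was selected on its level by age in these cells: it stands in the study's own list of genes that went with age, which was drawn from the same cells. Its values by age are therefore a description without a test. The other 7 genes were added as its relatives and partners.

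The study asked how ISCs change with age. Cells high for green fluorescent protein from the Lgr5 locus were sorted from small intestinal crypts into plates and sequenced one by one with a full-length cDNA method of the Smart-seq2 kind. There were 3 young mice, called young mouse 1 to 3 here, and 4 old mice, called old mouse 1 to 4. All 7 carried the reporter allele B6.129P2-Lgr5tm1(cre/ERT2)Cle/J, in which the Lgr5 promoter drives the fluorescent protein and a tamoxifen-dependent Cre, so the label reaches cells in which that promoter was active. No treatment is named for the sequenced mice, and no age in weeks is stated for them. Of the 1920 cells in the table, 1836 had at least 1000 detected genes and were kept.

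Integrins bind the matrix outside the cell and gather a focal adhesion inside it. There Ptk2 phosphorylates itself and so offers a docking place to Src-family kinases, and the pair phosphorylates the scaffold proteins paxillin and p130Cas. Vinculin links the complex to actin. Src, Fyn and Yes1 are made in most tissues and partly stand in for one another, whereas Lyn is best known from blood cells and is also found in epithelia. In the crypt, Src-family kinases have been studied mostly for their part in proliferation and regeneration of the epithelium.

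The 4 kinases share a domain plan, so it was first checked whether their reads could be mixed up. The longest stretch of identical coding bases between any pair was compared in 1 annotated coding transcript of each gene (GENCODE M21, GRCm38, all on the plus strand). It reached 22 bases, between Fyn and Yes1, 21 bases between Src and Lyn, and 17 bases between Fyn and Src. These 3 pairs are printed with 20 bases on either side, because they show how soon the genes part. Capitals mark the shared run. The first run joins exons 5 and 6 of Fyn, from chr10:39515669 to its last base at 39522774, and exons 3 and 4 of Yes1, from chr5:32645107 to 32651677. The second lies in exon 10 of Src at chr2:157465956-157465976 and in exon 8 of Lyn at chr4:3748741-3748761. The third lies in exon 10 of Fyn at chr10:39532057-39532073 and in exon 11 of Src at chr2:157467472-157467488.
Fyn with Yes1: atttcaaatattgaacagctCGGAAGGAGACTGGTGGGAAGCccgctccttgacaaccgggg
Yes1 with Fyn: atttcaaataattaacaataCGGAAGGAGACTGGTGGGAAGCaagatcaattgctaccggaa
Src with Lyn: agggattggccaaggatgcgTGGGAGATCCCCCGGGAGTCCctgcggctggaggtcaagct
Lyn with Src: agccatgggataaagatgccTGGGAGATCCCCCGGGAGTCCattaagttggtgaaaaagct
Fyn with Src: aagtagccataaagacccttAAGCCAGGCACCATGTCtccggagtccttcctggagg
Src with Fyn: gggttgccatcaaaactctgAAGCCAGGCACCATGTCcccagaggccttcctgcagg

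Overlap with other genes was of more weight than likeness within the family. Vcl shares 25.5% of its exon bases with Ap3m1 on the opposite strand, Yes1 shares 8.46% with Gm10461, and Lyn shares 6.09% with Gm26857. No source used here says whether counting was by strand, so reads of these partners cannot be told apart from those of Vcl, Yes1 and Lyn. Lyn also shares 50-base stretches with the copy Gm11787, and in all 18.3% of its 50-base stretches occur in another gene. No exon of Fyn, Src, Ptk2, Pxn or Bcar1 overlaps an exon of another gene.

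The kept cells held a median of 305492 reads and 9398.5 detected genes, and 49447464 to 134408884 reads were summed per mouse. Each cell was assigned to the marker list with the highest mean log2(CPM + 1), where CPM is a gene's count scaled by the read total, as is usual for single-cell counts. The ISC list led in 1544 cells, Paneth markers in 128, enterocyte markers in 89 and goblet markers in 53, and 57 cells (3.10%) were within 0.5 of another list. The immune list led in 0 cells. Cells sharing a code of 384 cells were taken as 1 sequencing lane, and 3 of the 5 lanes held both ages. The study used 384-well plates as well as lanes of 384 cells, so the code could also stand for a plate. All 12 enterocyte, all 8 goblet and 11 of 12 Paneth markers had a higher mean in the old mice and 3 of 20 ISC markers did, with summed enterocyte markers at 948 to 1187 CPM in young and 897 to 2604 CPM in old mice, and goblet markers at 417 to 1172 and 638 to 2948 CPM. No marker of the 8 cell type lists was at 0 in all mice.

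The 8 genes differed several-fold in level, and Fyn stood at the bottom. Levels were compared per length, as TPM, a share of all transcripts corrected for length, over the union of each gene's exons, with summed cells of a mouse as 1 value. Bcar1 was highest at 22.3 ± 2.68 TPM (SD, n = 7 mice), followed by Yes1 at 19.4 ± 3.56 TPM. Lyn reached 15.8 ± 4.75 TPM, Src 12.2 ± 2.67 TPM and Pxn 12.1 ± 2.60 TPM. Vcl stood at 11.2 ± 2.93 TPM, Ptk2 at 8.60 ± 1.14 TPM and Fyn at 3.20 ± 1.66 TPM. Of the 7 pairs of neighbours in this order, Ptk2 and Fyn alone kept their order in 7 of 7 mice. Fyn was lower by 1.58 ± 0.70 (SD) on the log2 scale. It was chosen for its low level in the old mice, which enter this step, so no p is given for it. In the young mice Fyn stood at 4.03 to 5.65 TPM and Ptk2 at 8.39 to 9.93 TPM. In all, 19 of the 28 pairs passed 0.05 (two-sided exact sign-flip permutation test over mice, Benjamini-Hochberg adjustment over 28 pairs). Every pair with Fyn is among these 19, and those pairs are not a test of Fyn, because of how it was chosen. The smallest p that 7 mice can give in this test is 0.0156. No neighbouring pair without Fyn passed. With coding length in place of exon length the same number passed but the order became Yes1, Lyn, Bcar1, Pxn, Src, Ptk2, Vcl and Fyn, with Fyn still last.

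**Figure D1:**
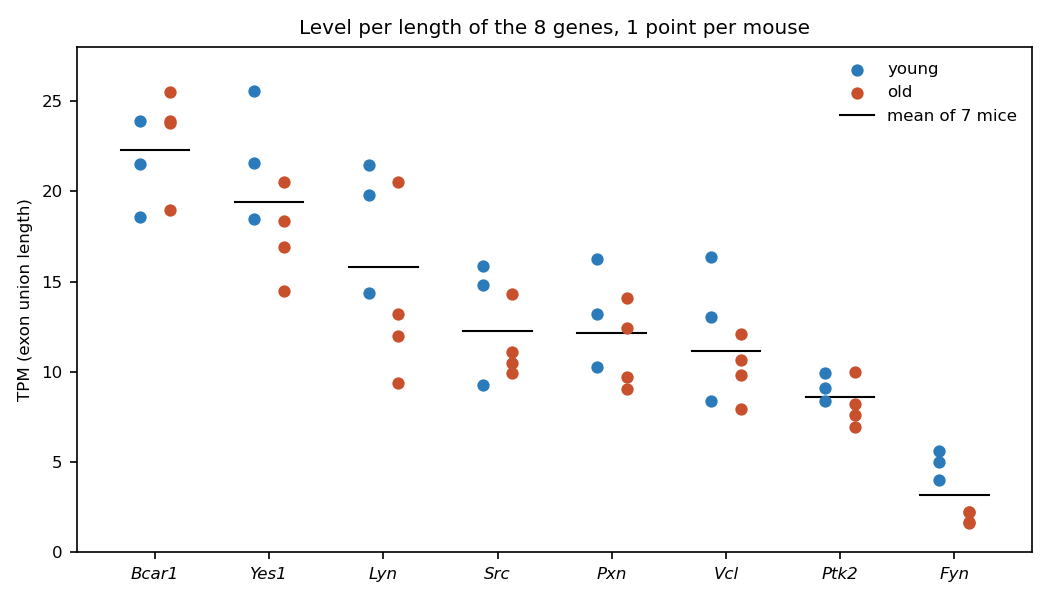
Level per length (TPM, y axis) of the 8 genes (x axis, in order of their mean), with 1 point per mouse, young in blue and old in red, and a bar at the mean of 7 mice. Bcar1 averages 22.3 TPM and Fyn 3.20 TPM, and neighbouring genes other than Ptk2 and Fyn lie within each other's spread.

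Fyn, on chromosome 10 (39368855 to 39565381, plus strand), was lower in the cells of every old mouse. Summed over the cells of a mouse, it stood at 7.95, 10.1 and 9.02 CPM in young mice 1 to 3. In old mice 1 to 4 it stood at 3.04, 4.51, 3.40 and 4.28 CPM. The groups did not overlap: the lowest young mouse was above the highest old mouse. The means were 9.03 ± 1.09 CPM (SD, n = 3) and 3.81 ± 0.70 CPM (SD, n = 4), and the fitted log2 fold change was -1.19 (SE 0.26), a 2.28-fold lower level in the old. Of all 20957 genes tested, 4.09% were likewise lower in every old than in every young mouse, and 1.82% were higher in every old mouse.

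Both the share of cells with a Fyn read and the median CPM among those cells were lower in old mice. A cell without a read can still express Fyn, so these values do not separate fewer expressing cells from a lower level per cell. The share of cells with a Fyn read was 30.0%, 34.9% and 31.1% in young mice 1 to 3, and 14.8%, 19.4%, 20.1% and 17.2% in old mice 1 to 4. With every cell thinned to 100000 reads, which left out 104 shallower cells, the mean share was 26.4% ± 2.20 (SD, n = 3) in young and 14.2% ± 0.85 (SD, n = 4) in old mice. Among cells with a read, the median was 17.6 to 22.0 CPM in young and 12.7 to 16.6 CPM in old mice. The 10% of cells richest in Fyn held 87.8% to 92.0% of its CPM in the old against 62.1% to 72.7% in the young. This largely restates the smaller share of cells with a read and is not a separate result.

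Fyn was also read by lane and in ISC-led cells. These are parts of the cells it was chosen from, so the values are a description and no separate support. In the lane shared by old mouse 1 and young mouse 2, Fyn stood at 3.04 against 7.97 CPM, a log2 difference of -1.39. In the lane shared by old mouse 2 and young mouse 2 it was -1.40, and in the lane of old mouse 3 and young mouse 1 it was -1.23. Young mouse 2 was split over a pair of lanes and read 7.97 CPM in one and 11.9 CPM in the other, which shows how far a single mouse can vary. In ISC-led cells alone Fyn was at 7.23, 10.5 and 9.46 CPM in young mice 1 to 3. In old mice 1 to 4 these cells had 3.07, 4.15, 3.42 and 3.35 CPM. Immune cells are rich in Fyn and Lyn. The pan-leukocyte gene Ptprc was read in 23 kept cells (1.25%), which held 1.73% of the Fyn CPM and 2.80% of the Lyn CPM summed over cells. The 12 immune markers summed to 1.98 to 8.70 CPM in young and 2.37 to 3.38 CPM in old mice, and the part of such cells in the Fyn difference was not tested.

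The other Src-family kinases overlapped between the ages. Src (chromosome 2, 157418444 to 157471862) stood at 18.3, 28.5 and 26.9 CPM in the young and at 20.6, 21.4, 20.2 and 27.5 CPM in the old, so the groups overlapped. Its log2 fold change was -0.07 (SE 0.21). Yes1 (chromosome 5, 32611171 to 32687057) had 86.9, 66.5 and 57.5 CPM in the young and 65.7, 64.3, 59.1 and 48.0 CPM in the old, with a log2 fold change of -0.20 (SE 0.19). Lyn (chromosome 4, 3678115 to 3813122) had 26.5, 33.1 and 36.3 CPM in the young and 35.6, 25.0, 17.8 and 21.5 CPM in the old. Old mouse 1 was among the highest for Lyn while the other 3 old mice were the lowest of all, and the log2 fold change was -0.31 (SE 0.23). Within the 3 shared lanes Lyn differed by 0.27, -0.53 and -0.58 on the log2 scale, so its direction was not the same in each.

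The focal adhesion partners also overlapped between ages. Ptk2 (chromosome 15, 73205102 to 73423280, minus strand), the kinase at the centre of the complex, was the steadiest of the 8: 44.8, 44.3 and 48.6 CPM in the young and 50.2, 38.3, 41.8 and 42.7 CPM in the old. Its log2 fold change was -0.03 (SE 0.15). Pxn (chromosome 5, 115506676 to 115555987), the scaffold that Ptk2 and Src phosphorylate, ranged from 38.0 to 55.2 CPM in young and from 34.6 to 50.9 CPM in old mice. Bcar1 (chromosome 8, 111710474 to 111743809, minus strand), the Cas adaptor, had 38.2, 44.6 and 40.6 CPM in the young and 46.1, 40.2, 50.5 and 51.1 CPM in the old. It was the single gene of the 8 with a fitted log2 fold change above 0, at 0.25 (SE 0.15), and within lanes it differed by -0.14, 0.03 and 0.40. Vcl (chromosome 14, 20929398 to 21033676) ranged from 31.0 to 55.6 CPM in young and from 27.8 to 43.6 CPM in old mice, in counts that can include Ap3m1.

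Tested with edgeR over all 20957 genes, none of these 7 passed 0.05 (adjusted p = 0.999984 for each). Their unadjusted p was under 0.05 for 0 of 7, and DESeq2 and limma voom called 0 of 7. In the same fit 0 of all genes were called (0%), against 177 in DESeq2 and 2 in limma voom, and 1098 (5.24%) fell under 0.05 before adjustment. These p-values weigh the difference between the ages against the spread between mice of a group.

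**Figure D2:**
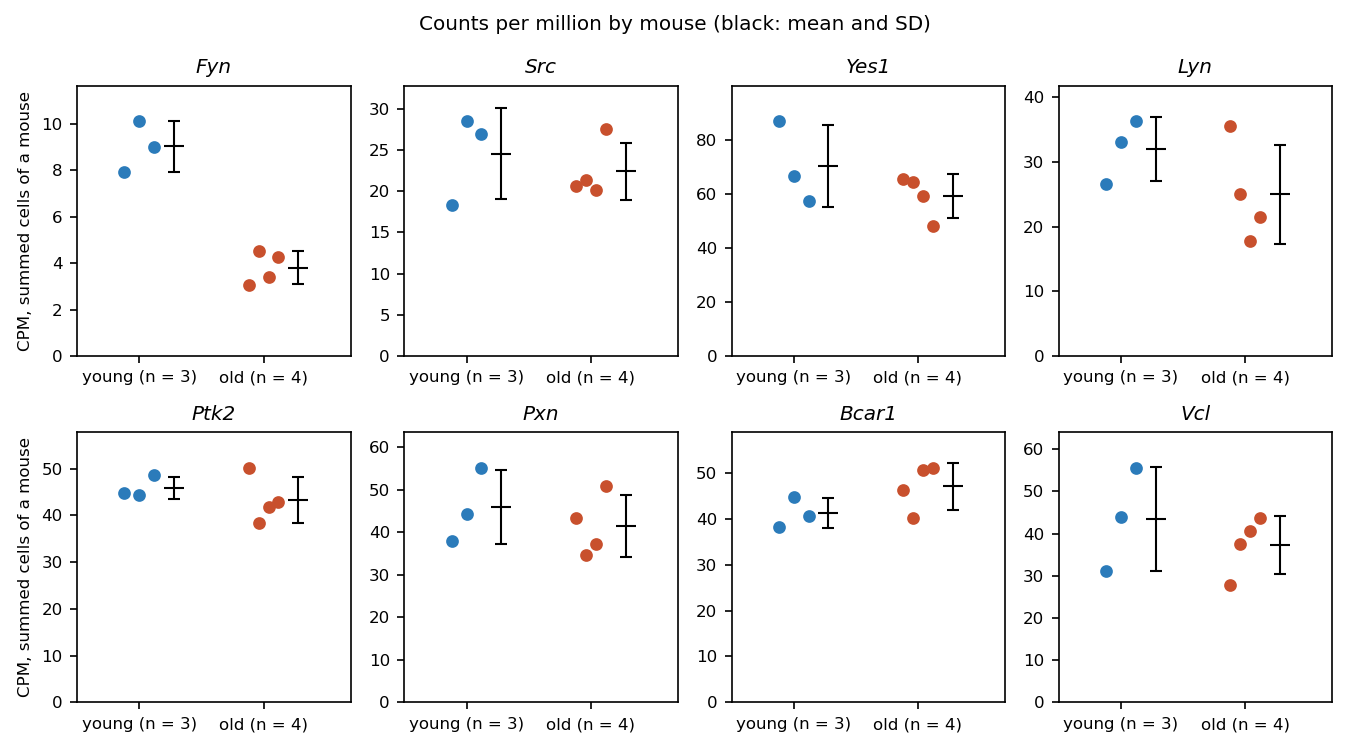
CPM (y axis, from 0) of the 8 genes in the summed cells of each mouse, young in blue (n = 3) and old in red (n = 4), with the mean and SD in black. Fyn is the gene of the 8 whose groups do not overlap, with 7.95 to 10.1 CPM in young and 3.04 to 4.51 CPM in old mice.

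The wider pathway was read from 7 lists of 102 genes in all, of which 95 could be tested by age. None passed by edgeR, against 7 (7.37%) with an unadjusted p under 0.05 beside 5.24% of all genes, and 4 of these 7 stand in the study's own list. The median log2 fold change of the lists lay between -0.25 and 0.22, beside 0.01 for all genes tested. Several of the genes with the lowest p stand in the study's own list and are given here without a test: Sorbs2, a vinculin-binding adaptor, at -0.57 (SE 0.15), Trip6, a zyxin-family protein, at -1.26 (SE 0.52), Elmo1, which works with Dock1 to switch on Rac, at -0.49 (SE 0.14), and Ptpn6, a phosphatase also known as SHP-1, at 0.73 (SE 0.25). Lck, the T cell Src-family kinase, was at -0.50 (SE 0.49) and the collagen-binding integrin Itga1 at -0.28 (SE 0.22), both on that list too. Of the genes outside it, the actin crosslinker Flna had a log2 fold change of -0.69 (SE 0.29, edgeR adjusted p = 0.917) and Matk, a kinase that can inhibit Src kinases, 1.29 (SE 0.49, edgeR adjusted p = 0.854).

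Most ISCs carried reads of several Src-family kinases at once. In ISC-led cells thinned to 100000 reads, a mean of 39.7% ± 3.08 (SD, n = 7 mice) had reads of 3 of the 4 kinases, 33.3% ± 3.29 of 2 and 8.14% ± 4.53 of all 4. Cells with none of them made up 3.41% ± 1.48. The share with all 4 was 10.6% to 16.1% in young and 3.62% to 6.49% in old mice, and includes the Fyn difference by which the gene was chosen. The other 7 genes were detected far more widely than Fyn: in thinned cells of all classes a mean of 64.8% had a read of Src, 67.4% of Lyn, 76.1% of Vcl, 78.1% of Bcar1, 80.4% of Ptk2, 83.9% of Pxn and 84.9% of Yes1, against 19.5% for Fyn. Smart-seq2 reads carry no molecular tags, so these shares are of cells with a read at this depth, not of cells that express the gene.

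Cells led by another lineage's markers were then compared with ISC-led cells of the same mouse, which asks whether the kinases go with cell type. Neither the 8 genes nor the pathway lists were used to assign the cells. Counts were summed per mouse and class, and values below are CPM scaled by TMM, edgeR's factor for differences in RNA makeup. That scaling matters in Paneth-led cells: without it the median log2 fold change of all genes was -1.16, with it -0.17.

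Fyn was read at a higher level in Paneth-led cells, which secrete antimicrobial proteins and sit between ISCs at the crypt base. It stood at 10.4 ± 4.14 scaled CPM in Paneth-led and 4.10 ± 2.10 in ISC-led cells (SD, n = 7 mice) and was higher in 6 of 7 mice, with a fitted log2 fold change of 1.43 (SE 0.40). Fyn was chosen for its low level in old cells, most of which are ISC-led, so one side of this difference was low by choice in the old mice, and no p is given for Fyn against ISC-led cells. In this fit 12.7% of 19940 genes were called, 6.25% as higher and 6.49% as lower. In old mice 1 to 4 the ISC-led cells had 2.13, 2.88, 2.49 and 2.50 scaled CPM and the Paneth-led cells 6.19, 12.3, 13.3 and 15.9. In young mice 1 to 3 the ISC-led cells had 4.99, 6.94 and 6.78 and the Paneth-led cells 11.7, 8.99 and 4.14. The gap between classes in log2(scaled CPM + 1) averaged 1.82 ± 0.46 (SD, n = 4) in old and 0.27 ± 0.84 (SD, n = 3) in young mice. Young mouse 1, at 1.08, was near old mouse 1, at 1.20, while young mice 2 and 3 stood at 0.33 and -0.60. Whether the gap differs by age was not tested. Among Paneth-led cells the ages overlapped, with young mice at 4.14 to 11.7 and old mice at 6.19 to 15.9.

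The Fyn difference in Paneth-led cells rests on few reads and few cells. They were 6 to 94 Fyn reads in 8 to 40 cells per mouse, and in young mice 1 and 3 and old mice 1 and 3 a single cell held 66.7% to 75.0% of them. A Fyn read was present in 55 of 128 Paneth-led cells (43.0%), which had a median of 231439 reads against 318560 in ISC-led cells. Leaving out a mouse gave log2 fold changes of 1.20 (without old mouse 4) to 1.75 (without young mouse 3). With cells thinned to 100000 reads it was 1.00, and without scaling factors 0.42. Summed immune markers moved with the class, at 5.82 to 16.3 CPM in Paneth-led and 0.879 to 7.87 CPM in ISC-led cells, with 9 of 12 markers higher. In most mice the bulk of that was Lyz2, a close copy of the Paneth gene Lyz1, at 5.82 to 14.0 CPM. A read of Ptprc, Cd3e, Cd3g or Cd8a was present in 3 Paneth-led cells, and without cells of that kind the log2 fold change of Fyn was 1.42 (SE 0.41).

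The other 7 genes did not pass 0.05 in Paneth-led cells. Pxn was higher in 7 of 7 mice, at 38.4 ± 10.2 against 31.1 ± 5.74 scaled CPM (log2 fold change 0.29, SE 0.15, edgeR adjusted p = 0.243), and Vcl in 6 of 7, at 35.0 ± 9.77 against 28.8 ± 7.27 (0.27, SE 0.18, edgeR adjusted p = 0.355). Src was at 21.5 ± 4.61 against 16.8 ± 3.33 scaled CPM, with a log2 fold change of 0.34 (SE 0.22, edgeR adjusted p = 0.331). Yes1, Lyn, Ptk2 and Bcar1 lay within 0.11 of 0 on the log2 scale. These directions rest on TMM: without scaling factors all 7 were lower in Paneth-led cells, by 0.66 to 1.12 on the log2 scale, where the median gene was at -1.16.

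**Figure D3:**
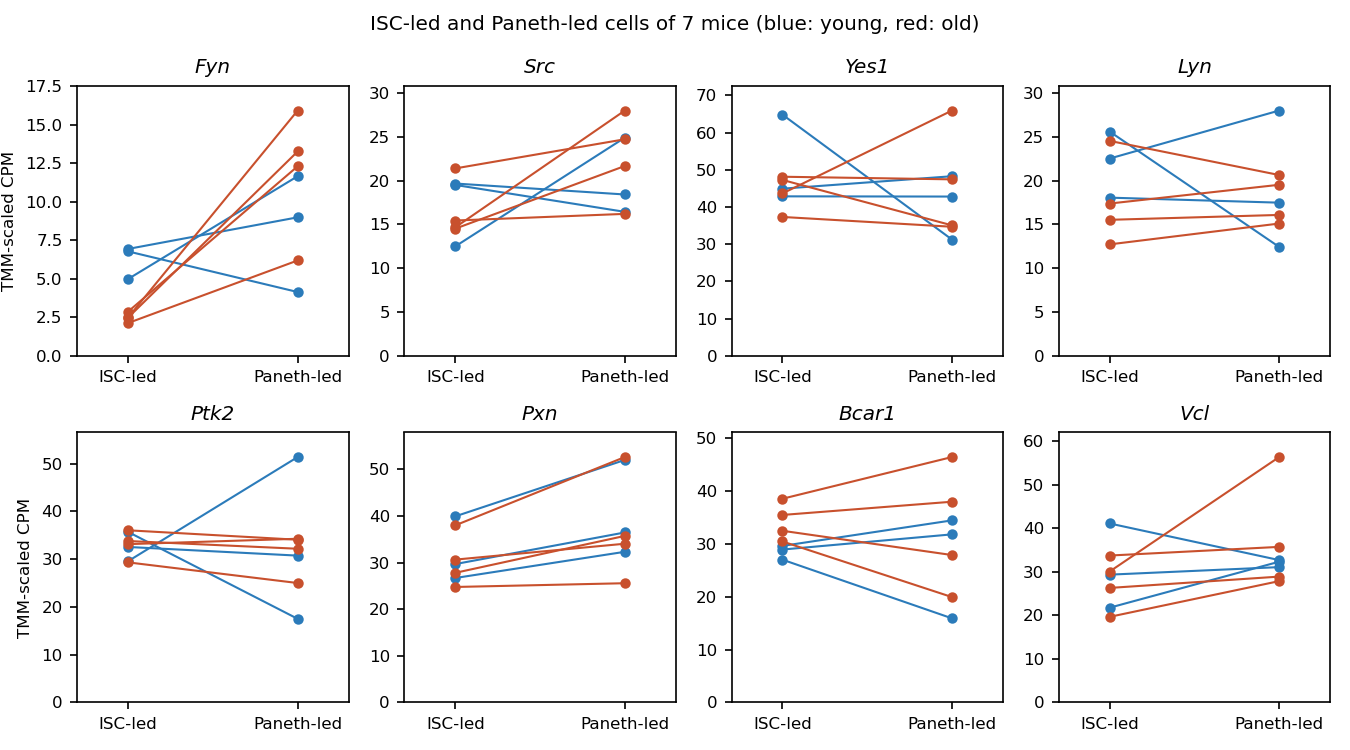
TMM-scaled CPM (y axis, from 0) of the 8 genes in ISC-led and Paneth-led cells, with 1 line per mouse, young in blue and old in red. Fyn is higher in Paneth-led cells in 6 of 7 mice. This picture depends on the scaling, without which the other 7 genes are lower in Paneth-led cells and Fyn is 0.42 higher on the log2 scale.

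Among list genes, 8 rose and 5 fell of 92 tested in Paneth-led cells, 8.70% and 5.43%, near the 6.25% and 6.49% of all genes. Fgr, a myeloid Src-family kinase, fell by 2.05 on the log2 scale (SE 0.47, edgeR adjusted p = 0.00781). Of the regulators of Src kinases Ptpre, a receptor-type phosphatase, rose from 3.34 to 7.63 scaled CPM and the ubiquitin ligase Cblb from 16.0 to 26.7, while the phosphatase Ptpn2 fell from 60.9 to 43.0. Of the scaffold list Sorbs3, a vinculin-binding relative of Sorbs2, rose by 1.43 on the log2 scale, and Tns4, a tensin, fell by 0.57. Itgb4, the hemidesmosome integrin, rose from 37.3 to 54.3 scaled CPM and Itga9 from 0.241 to 1.40. With RLE scaling 12 of the 92 rose (13.0%) and the falling calls were 1, that of Fgr. In DESeq2 16 rose (17.4%) and 4 fell (4.35%), and without scaling factors 68 of the 92 fell and none rose. The shares over all genes under these settings are not set beside them here. The median log2 fold change of the 2 largest lists, scaffold and adaptors, was -0.12 and -0.14 beside -0.17 for all genes.

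In enterocyte-led cells, which are absorptive, none of the 7 genes other than Fyn passed 0.05 against a background of 16.9% of 19481 genes called, 8.7% as higher and 8.18% as lower. Fyn was lower in 5 of 5 mice with at least 5 such cells, at 2.24 ± 1.50 against 5.01 ± 2.44 scaled CPM (log2 fold change -1.25, SE 0.50), given without a test as before. Its counts there were 2 to 11 reads per mouse. Bcar1 was higher in 5 of 5 mice, at 55.6 ± 10.4 against 40.8 ± 6.06 scaled CPM (0.44, SE 0.21, edgeR adjusted p = 0.168), and passed with thinned cells (0.63, edgeR adjusted p = 0.0337) and in DESeq2 (0.54, adjusted p = 0.0265). Lyn was higher in 4 of 5 mice (0.51, SE 0.26, edgeR adjusted p = 0.191) and passed with thinned cells at 0.95 (edgeR adjusted p = 0.00638) and in DESeq2 at 0.62 (adjusted p = 0.0486). The fit with thinned cells held 4 mice, without young mouse 1, so it differs from the main fit in its mice as well as in depth. Ptk2 was lower in 4 of 5 mice at -0.46 (SE 0.25, edgeR adjusted p = 0.218). Young mouse 3 ran the other way for Ptk2, and without it the log2 fold change was -0.67 (edgeR adjusted p = 0.0433).

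Of 91 list genes tested in enterocyte-led cells 13 rose (14.3%, beside 8.7% of all genes) and 8 fell (8.79%, beside 8.18%). Ptk6, an intracellular tyrosine kinase of differentiating gut epithelium related to Src, rose from 0.238 to 17.8 scaled CPM, a log2 fold change of 6.62 (SE 0.61, edgeR adjusted p = 7.88e-07). Fgr fell by 2.88 (SE 0.71, edgeR adjusted p = 0.0110). Ptpre rose from 4.24 to 23.4 scaled CPM, and Pag1, a membrane adaptor that recruits the Src inhibitor Csk, from 8.51 to 29.3. Of 10 Src substrates 4 rose and none fell, among them Anxa2 from 37.2 to 490 scaled CPM, Ezr (ezrin) from 215 to 779 and the tight junction scaffold Tjp1 from 20.0 to 39.6. The integrin subunits Itga3, Itgb4 and Itgb5 rose by 1.39, 0.95 and 3.00 on the log2 scale. Of 25 scaffold genes 2 rose and 6 fell, among which Sorbs2 and Kank1 fell by 1.23 and 1.16. Without scaling factors the substrates gave 2 rising and 1 falling gene.

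In goblet-led cells, which make mucus, 2.29% of 19445 genes were called, 1.83% as higher and 0.463% as lower, and none of the 7 genes other than Fyn was among them. Only 4 mice had at least 5 such cells. Fyn read 3.57, 1.60, 0 and 13.3 scaled CPM in young mouse 3 and old mice 2, 3 and 4, so its log2 fold change of -1.04 carried an SE of 1.01. Src and Lyn were lower in 4 of 4 mice at -0.55 (SE 0.34, edgeR adjusted p = 0.524) and -0.51 (SE 0.37, edgeR adjusted p = 0.605). Of 93 list genes, 2 rose and 1 fell: Anxa2 by 1.90 (SE 0.27, edgeR adjusted p = 0.00332), Ptpre by 2.09 (SE 0.46, edgeR adjusted p = 0.0387) and Tns3, a tensin, down by 1.11 (SE 0.19, edgeR adjusted p = 0.00918). Tuft markers led in 15 cells and enteroendocrine markers in 4, with at least 5 such cells in 1 mouse and in 0 mice, so these were not tested. The 7 tuft-led cells of old mouse 4 held 30 Fyn reads, 9.01 CPM.

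Within ISC-led cells, Pxn read lower in those with high G2 and mitosis genes, a call that did not hold in every setting. In each mouse the 25% of ISC-led cells highest in a list of 20 such genes were set against the lowest 25%, 385 cells on either side. Pxn was at 30.3, 41.4 and 45.0 scaled CPM in the high cells of young mice 1 to 3 and at 44.0, 50.9 and 67.9 in the low cells. In old mice 1 to 4 it was at 30.4, 28.6, 29.3 and 52.1 in the high and at 43.7, 51.6, 45.2 and 57.5 in the low cells. It was lower in the high cells of 7 of 7 mice, at 36.7 ± 9.41 against 51.5 ± 8.77 (SD, n = 7), with a log2 fold change of -0.51 (SE 0.13, edgeR adjusted p = 0.0297). In this fit 11.2% of 18511 genes were called, 4.45% as lower and 6.74% as higher. Pxn was the 1 call among the 8 genes, near the share over all genes, so the call does not set these 8 apart. The size held near -0.5 when a mouse was left out, but the adjusted p passed in 2 of 7 such fits, those without young mouse 1 and without old mouse 4. It was 0.0515 without old mouse 1, 0.0771 without old mouse 2, 0.0587 without old mouse 3, 0.0577 without young mouse 2 and 0.0747 without young mouse 3. With the highest and lowest 50% of cells it was -0.30 (edgeR adjusted p = 0.116), and with no filter on low counts -0.49 (edgeR adjusted p = 0.0665). The high cells had a median of 9914 detected genes against 8339 and 312832 reads against 331188, and the summed immune markers were at 3.34 against 0.980 CPM. Their part in the result was not tested.

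None of the other 7 genes passed 0.05 in this comparison. Bcar1 was higher in the high cells of 5 of 7 mice, at 51.4 ± 10.5 against 39.5 ± 10.9 scaled CPM (log2 fold change 0.39, SE 0.17, edgeR adjusted p = 0.192), and passed with thinned cells (0.47, edgeR adjusted p = 0.0139) and with the 50% split (0.34, edgeR adjusted p = 0.0369). Fyn was higher in 5 of 7 mice, at 7.28 ± 2.84 against 5.27 ± 4.06 scaled CPM (0.71, SE 0.35, edgeR adjusted p = 0.245). Src was lower in 6 of 7 at -0.29 (SE 0.17, edgeR adjusted p = 0.327). Lyn, Vcl, Yes1 and Ptk2 had log2 fold changes of 0.27, 0.11, 0.05 and -0.09, each smaller than its SE. The direction and size of the 8 log2 fold changes moved little without scaling factors, where the median of all genes was 0.04 against 0.00 with TMM, and Pxn was at -0.47 (edgeR adjusted p = 0.0419).

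**Figure D4:**
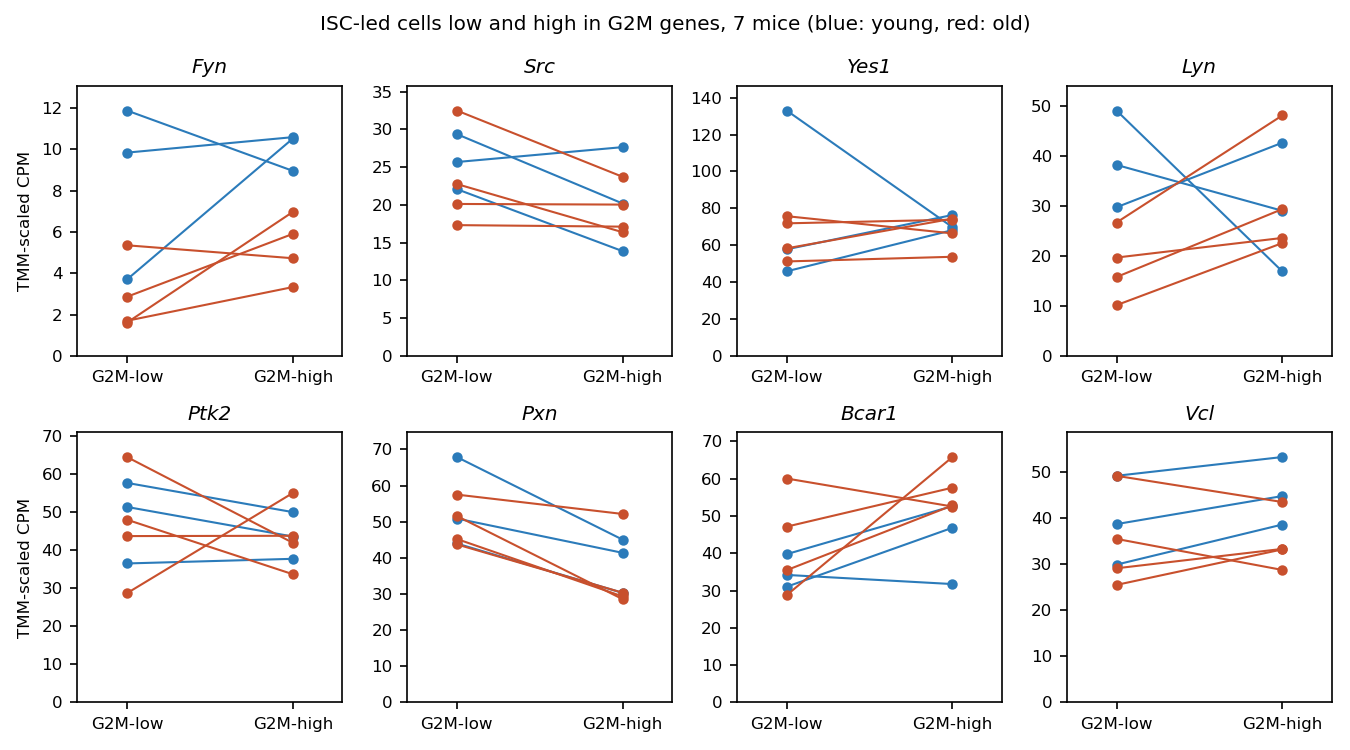
TMM-scaled CPM (y axis, from 0) of the 8 genes in ISC-led cells with low and high G2 and mitosis genes, with 1 line per mouse, young in blue and old in red. Pxn is lower in the high cells of 7 of 7 mice, with means of 36.7 and 51.5 scaled CPM.

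Of 92 list genes, 6 rose and 8 fell, 6.52% and 8.70% beside 6.74% and 4.45% of all genes. Of the 25 scaffold genes among them, 5 fell, none rose and 20 did not pass, and the median log2 fold change was -0.24 beside 0.00 for all genes, with 4 to 5 falling and none rising under the other scalings and in DESeq2. Tns3, a tensin that binds integrin tails, fell from 520 to 290 scaled CPM (log2 fold change -0.86, SE 0.11, edgeR adjusted p = 0.000417). Sorbs2 fell by 0.53 (SE 0.10, edgeR adjusted p = 0.00469) and Lpp, a zyxin relative, by 0.35 (SE 0.07, edgeR adjusted p = 0.00850), both in 7 of 7 mice. Of 22 adaptors and GTPase regulators 2 rose and 1 fell: the kinase Pak4 rose from 68.1 to 133 scaled CPM, Rhoa from 125 to 164, and Elmo1 fell from 100.0 to 59.9. Of the Src-related kinases Fgr rose from 4.15 to 11.4 scaled CPM, the opposite of its direction in Paneth-led and enterocyte-led cells. Of the regulators Ptpre rose by 1.76, whereas Cblb fell by 0.90. Itga3 rose by 0.79 (SE 0.22, edgeR adjusted p = 0.0449) and Stat3, a transcription factor that Src can phosphorylate, fell by 0.91 (SE 0.22, edgeR adjusted p = 0.0210).

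**Figure D5:**
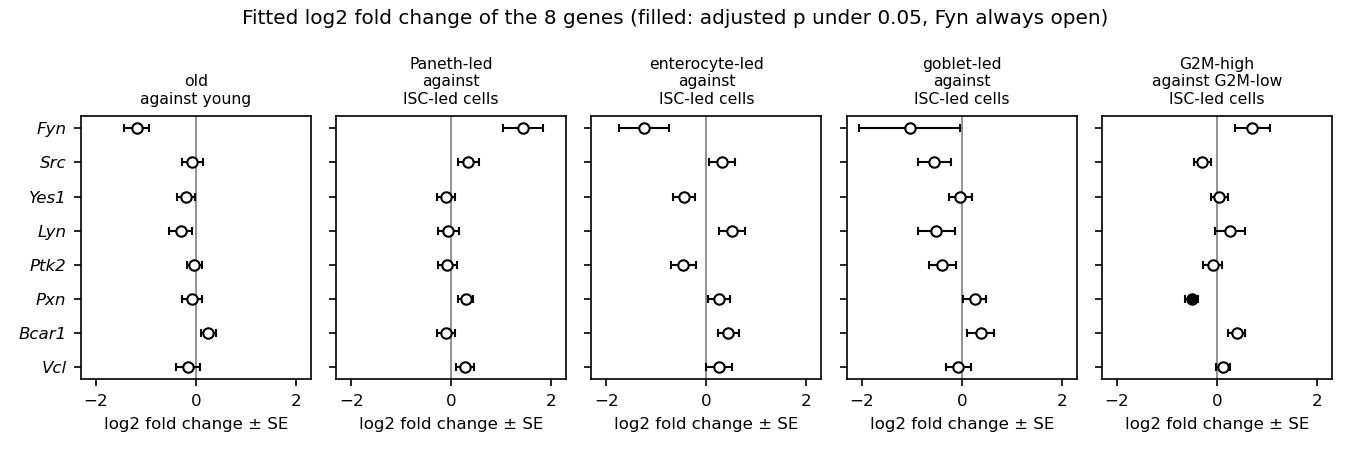
Log2 fold change with its SE (x axis) of the 8 genes (y axis) in 5 comparisons, with a filled point where the edgeR adjusted p was under 0.05 and Fyn drawn as an open point throughout. Pxn in cells high in G2 and mitosis genes (-0.51) is the filled point, Fyn stands at 1.43 in Paneth-led cells, and under plain library totals the other 7 genes lie below 0 in Paneth-led cells.

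Across single cells, no gene ran closely with Fyn. It had a read in 14.8% to 34.9% of the kept cells of a mouse, and so many zeros limit how high its r can be. Its values are therefore not comparable with those of the more widely read genes. For each of the 8 genes, Pearson's r of log2(CPM + 1) was taken over the kept cells of a mouse and averaged over 7 mice, among 13376 genes read in at least 10% of cells of every mouse. The points share their library and depth, and these values are a description. Fyn's nearest genes were Kit, a receptor tyrosine kinase, at r = 0.21 (0.13 to 0.31 over mice), Reep5 at 0.19 and Klf4 at 0.19. Among the other 7 genes it was nearest to Ptk2 at 0.10. Src was nearest to Sptan1, a spectrin that lines the membrane, at 0.34, and to Lgr5 it had 0.22. Pxn was nearest to Hnf4a at 0.33 and Eps8l3 at 0.33, followed by talin (Tln1), its neighbour in the focal adhesion, at 0.33. Ptk2 was nearest to R3hdm1 at 0.37, Bcar1 to Cs at 0.34 and Lyn to Cs at 0.31. The highest value of Vcl was with Ap3m1 at 0.44 and that of Yes1 with Gm10461 at 0.40, the genes whose exons overlap theirs.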

How the data were processed

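The authors sorted single Lgr5-high cells of 3 young and 4 old mice and deposited a table of unnormalized counts, genes by cells. The submitters' processing notes name HISAT2, HTSeq and GRCm38. Their versions, annotation and strand setting were not given in the sources used here. Labels name a SMARTER kit, the methods a Smart-seq2 protocol. The 8 genes, the gene lists and the tests were chosen with earlier results of these data known.

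A minimum of 1000 detected genes left 1836 cells. The median was 305492 reads and the lowest total 1695; statements of depth cover counting error only. Doublets were not called. Counts were summed per mouse, or per mouse and class where both classes had at least 5 cells in at least 4 mice, and tested with edgeR 4.0.16 (quasi-likelihood, TMM, filterByExpr, Benjamini-Hochberg over all genes, threshold 0.05) in R 4.3.3, with the mouse as a block between classes. DESeq2 1.42.0 and limma 3.58.1 (voom) were alternatives, as were other scalings, filters, cell sets, thinning to 100000 reads, blocks and leaving out each mouse. Fits were tested on simulated counts. SE of a log2 fold change was taken from the quasi-likelihood F. CPM used the library total, TPM the exon union length of GENCODE M21. Symbols were matched for 55144 of 55471 identifiers. Named list genes were those past 0.05 in a comparison or, where none or over 3 passed, the 3 with the lowest p. The authors' list of genes that went with age was used to say which genes it holds, never for values. Some genes of the lists are not reported here by name.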

Additional observations from a re-analysis of the deposited data

Results flagged for a closer look

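Of 40 sets of 4 to 7 mice examined for a lone mouse, 7 had 1 mouse far from the others, where chance alone gives about 1 in 20. Src stood at 27.5 CPM in old mouse 4 against 20.2 to 21.4 CPM in the other old mice. In cells high against low in G2 and mitosis genes, Ptk2 differed by 0.92 on the log2(scaled CPM + 1) scale in old mouse 1 and by -0.61 to 0.05 in the other mice. In Paneth-led against ISC-led cells, Lyn differed by -0.99 in young mouse 3 and by -0.24 to 0.30 elsewhere. In enterocyte-led cells young mouse 3 stood apart for 2 genes, with Ptk2 at 0.34 against -0.85 to -0.56 and Vcl at -0.92 against 0.45 to 0.56. In goblet-led cells old mouse 4 stood apart for 2 genes, with Src at -1.33 against -0.32 to -0.19 and Lyn at -1.64 against -0.20 to -0.06.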

How the results depend on the processing

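Of 584 alternative values for single genes of the 8, 498 were counted as the same, 16 moved, 44 turned in direction, 13 lost and 13 gained a call. Shares of cells and Fyn by age were judged by whether they shifted less than the spread between mice. The others were judged by direction and side of the threshold, and these include Fyn against ISC-led cells, for which no p is given. Fyn by age ran from -1.32 to -0.93 on the log2 scale. Scaling by plain totals and leaving out cells with a lymphocyte marker read were added after seeing the data. Causes were not tested. By age the genes called were 0, and 177 in DESeq2, 3 in ISC-led cells, 15 with thinned cells, 18 with cells weighted equally, 1 with a lane block, 2 in limma voom, 22 with no filter and 0 to 8 leaving out a mouse, 8 of them without old mouse 1. The lane block entered young mouse 2 once per lane, as if separate animals. Only 3 of the 5 lanes, those with both ages, inform it on age. Same-numbered mice did not deviate together (r = -0.0907, 0.165 and -0.189 over 17205 genes), so the numbers do not pair them, and the replicate block called 2. Young and old mice that shared a lane had r = 0.252 (young 1 with old 3), 0.131 and 0.165 (young 2 with old 1 and old 2), and young 3 with old 4, in separate lanes, 0.276. For G2 and mitosis genes the counts were 2071, 3340 in DESeq2, 3480 thinned and 1495 to 1924 leaving out a mouse. For Paneth-led cells they were 2542, 12223 without scaling factors and 1485 (without old mouse 4) to 2314. For enterocyte-led cells they were 3288 and 1789 (without old mouse 4; 1841 without old mouse 2) to 3863. For goblet-led cells they were 446, 1325 in DESeq2, 718 thinned and 203 (without old mouse 2; 274 without old mouse 4 and 244 without young mouse 3) to 577. The order by level had 19 to 20 pairs past 0.05, pairs with Fyn included.

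Log2 fold changes that turned were small, other than in Paneth-led cells without scaling factors (Src -0.66, Pxn -0.72, Vcl -0.73). By age, Ptk2 was 0.0176 in ISC-led cells and 0.0155 with a lane block. Leaving out a mouse gave -0.227 to 0.0174 for Src, -0.317 to 0.00893 for Yes1, -0.0994 to 0.0272 for Ptk2, -0.220 to 0.0803 for Pxn and -0.338 to 0.0729 for Vcl. For G2 and mitosis genes Yes1 was -0.0485 with no replicate block and -0.0626 to 0.210 leaving out a mouse, Vcl -0.0540 thinned, and Ptk2 -0.251 to 0.00316 leaving out a mouse. In Paneth-led cells DESeq2 and RLE scaling gave 0.00910 and 0.00758 for Yes1, 0.0677 and 0.0602 for Lyn, 0.0463 and 0.0446 for Ptk2, and 0.0190 and 0.0132 for Bcar1. Lyn was 0.0156 where the leading list was ahead by at least 0.5, and with no replicate block Ptk2 was 0.0290 and Bcar1 0.0181. Leaving out a mouse gave -0.229 to 0.0296 for Yes1, -0.125 to 0.0954 for Lyn and -0.226 to 0.0730 for Ptk2. In enterocyte-led cells without scaling factors Pxn was -0.0230 and Vcl -0.0264. In goblet-led cells DESeq2, RLE scaling, thinning and no replicate block gave 0.0436, 0.0431, 0.00468 and 0.0327 for Yes1 and 0.00481, 0.00446, 0.00990 and 0.00716 for Vcl, which was 0.0470 where the leading list was ahead by 0.5. Leaving out a mouse gave -0.194 to 0.191 for Yes1 and -0.194 to 0.155 for Vcl. Enteroendocrine-led and tuft-led fits were not run, with fewer than 4 mice of at least 5 cells. The few Fyn reads per class limit what depth can show.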
